A study of Mus musculus with 2 samples.

Results

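The S100 calcium-binding protein genes were followed in the dorsal skin of mice with experimental dermatitis, with and without topical zinc-alpha-2-glycoprotein (ZAG). The members were 10 genes chosen by name: S100a8, S100a9 and S100a7a for inflamed skin, S100a3 for hair, and S100a4, S100a6, S100a10, S100a11, S100a14 and S100a16 as constitutive genes of the epidermis and its underlying tissue. They are 10 of the 22180 genes that had a probe of their own on the array, and each was read by 1 probe. A probe here means 1 entry of the platform annotation.

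Both groups were female mice of NC/Nga, an inbred strain prone to dermatitis. They entered at 6 weeks of age, received house dust mite (Dermatophagoides farinae) ointment 2 times a week for 6 weeks, and were 13 weeks old in the labels. The control group had dermatitis without ZAG, and the other group also received recombinant ZAG 2 times a week for 6 weeks, at 1 µg/mL according to the design text. The design names 3 mice per group, but the table used here has 1 array per group, so 2 in all, and the sources used here do not say whether an array holds 1 mouse, a pool or a mean. No undiseased or vehicle-only skin is among the groups, so the levels below cannot be set against healthy skin.

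S100 proteins are small proteins with a pair of EF-hand loops that change shape when they bind calcium and then dock onto partner proteins. Most of their genes lie in the epidermal differentiation complex, beside the genes of the cornified envelope. S100A8 and S100A9 pair as calprotectin, a metal-sequestering and inflammatory protein of neutrophils, monocytes and stressed keratinocytes. Mouse S100a7a is the counterpart of human psoriasin and koebnerisin, and S100A3 is a cysteine-rich protein of the hair cuticle. Keratin genes of the epidermis were bright on both arrays, with Krt10, a keratin of differentiated keratinocytes, at log2 levels of 12.15 and 12.16 in control and ZAG, and Krt14, of basal keratinocytes, at 11.35 and 10.62.

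The calprotectin pair was lower with ZAG while most other S100 genes were somewhat higher. Of the 10 members, 3 were lower and 7 higher with ZAG by any amount, against 47.6% lower and 52.3% higher among the 11090 genes whose mean level reached the median gene (log2 3.87). All 10 members passed that level filter, with mean log2 levels from 6.79 to 9.93. The number at least 2-fold lower was 2 of 10, against 1.15% of those genes, and the number at least 2-fold higher was 0 of 10, against 0.271%. At 1.5-fold, 2 members were lower and 1 higher, against 5.08% and 2.48%. The median difference (ZAG minus control, log2) was 0.27 over the members and 0.02 over the 11090 genes. With 1 array per group there is no replicate error and no test, and each difference describes these 2 arrays. As a scale of probe error, the SD of the log2 difference between probes of one gene was 0.244 over 591 genes at that level.

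**Figure D1:**
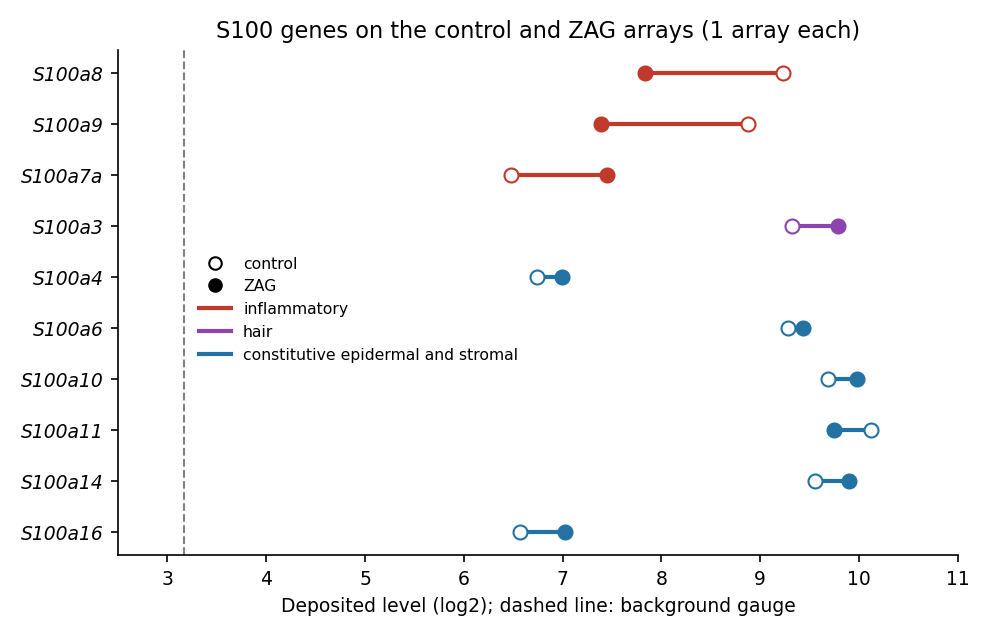
Deposited log2 level (horizontal axis) of each S100 member on the control array (open points) and the ZAG array (filled points), coloured by class, with the background gauge of 3.16 as a dashed line. S100a8 and S100a9 lie to the left with ZAG by more than 1 log2 unit, S100a7a lies to the right by 0.98, and all points are far above the gauge.

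S100a8, which encodes one calprotectin subunit, had a log2 level of 9.23 on the control array and 7.84 on the ZAG array. S100a9, which encodes the other subunit, had 8.88 in control and 7.39 with ZAG. Control was thus the higher array for both subunit genes. The folds were 2.63 for S100a8 and 2.80 for S100a9, lower with ZAG, or log2 differences of -1.40 and -1.49. The gap of 0.09 between these differences is smaller than the probe SD, so the subunit genes differed alike within probe error. Among the 11090 genes, S100a9 had the 49th and S100a8 the 61st most negative difference. Only 0.496% of these genes had a difference at least as large in size as that of S100a9, and 0.613% for S100a8. Genes of similar level varied somewhat more than that whole set: among the 458 genes within 0.5 log2 units of the level of S100a8, the SD of the difference was 0.406, against 0.353 over the 11090, and 1.31% differed as much.

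S100a7a, the remaining member of the inflammatory class, went the other way, with 6.47 in control and 7.45 with ZAG. Its log2 difference of 0.98, a 1.97-fold higher level, lies just short of 2-fold, and it was the 33rd most positive of the 11090 genes. The distance between S100a7a and S100a8 on the scale of log2 differences was 2.38, many times the probe SD. The inflammatory class therefore did not shift as a block on these arrays.

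According to the reference annotation, S100a7a, S100a8 and S100a9 are direct neighbours on chromosome 3, with 0 listed genes between S100a7a and S100a8 and 0 between S100a8 and S100a9. The 250 bases before each gene's RefSeq start (assembly GRCm38.p6) are shown here because these neighbours differed in opposite directions, and that of S100a11 because it was the only other lower member. Capitals mark matches to an AP-1 motif (TGANTCA, both strands), a C/EBP motif (TTNNGNAA, both strands) and a TATA box (TATAAA, strand of the gene). No marked matches overlap. The windows are chr3:90668821-90669070 on the plus strand, chr3:90695722-90695971 on the minus strand, chr3:90654052-90654301 on the plus strand and chr3:93520246-93520495 on the plus strand.
S100a8: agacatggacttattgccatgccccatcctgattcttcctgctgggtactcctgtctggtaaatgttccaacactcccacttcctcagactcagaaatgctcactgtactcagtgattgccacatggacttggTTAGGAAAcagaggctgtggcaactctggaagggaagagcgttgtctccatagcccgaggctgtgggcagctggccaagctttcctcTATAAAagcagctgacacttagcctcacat
S100a9: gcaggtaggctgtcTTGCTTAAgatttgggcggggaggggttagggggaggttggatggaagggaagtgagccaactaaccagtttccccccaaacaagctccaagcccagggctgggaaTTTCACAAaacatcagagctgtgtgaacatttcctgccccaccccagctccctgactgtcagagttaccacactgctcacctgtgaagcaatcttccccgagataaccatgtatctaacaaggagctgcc
S100a7a: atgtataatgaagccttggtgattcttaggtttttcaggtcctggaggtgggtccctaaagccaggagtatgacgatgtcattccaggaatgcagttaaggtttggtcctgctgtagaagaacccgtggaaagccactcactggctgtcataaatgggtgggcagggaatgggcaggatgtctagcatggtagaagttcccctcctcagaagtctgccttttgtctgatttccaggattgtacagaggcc
S100a11: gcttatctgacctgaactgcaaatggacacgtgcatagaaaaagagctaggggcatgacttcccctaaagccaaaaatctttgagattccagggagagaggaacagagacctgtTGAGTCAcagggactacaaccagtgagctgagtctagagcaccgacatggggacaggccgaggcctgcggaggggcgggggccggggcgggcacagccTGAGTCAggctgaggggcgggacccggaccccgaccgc

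The S100a8 window held 1 C/EBP match, starting 117 bases before the gene start, and 1 TATA box, 30 bases before it. The S100a9 window held 2 C/EBP matches, 236 and 130 bases before the start, and the S100a7a window held none of these motifs. The S100a11 window held 2 AP-1 matches, 136 and 38 bases before the start. Of 32851 windows of this length in the table, 6.75% held the AP-1 motif, 36.8% the C/EBP motif and 7.59% the TATA box, so the C/EBP letters are common. Windows were found for 8 of the 10 members, S100a10 and S100a14 being without an entry, and numbered 12 since S100a3 and S100a16 have several starts. Of these 12, 2 held the AP-1 motif, 4 the C/EBP motif and 3 the TATA box. Outside the windows shown, C/EBP matches lay before S100a3, an AP-1 match before S100a16, and TATA boxes before S100a3 and S100a4. These genes were higher with ZAG, so none of the motifs was confined to the lower members. These matches describe letters in a window and do not show that a factor binds there.

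S100a3, the hair cuticle gene, read 9.32 on the control array and 9.78 on the ZAG array. The ZAG array was the higher one, by 0.46 on the log2 scale or 1.38-fold. A difference of that size or larger was seen in 13.5% of the 11090 genes. Padi3, which encodes the peptidylarginine deiminase that modifies S100A3 in the hair follicle, was at 7.98 and 8.40, a difference of 0.43 that lies within the probe SD of that of S100a3. Genes of the hair shaft and cuticle, a list that includes Padi3, were mostly higher too. Of 18 measured genes, 16 were higher and 2 lower, 0 of them 2-fold, with a median of 0.43. Krt31, a hair cortex keratin gene, was at 8.24 and 9.05, and the cuticle keratin genes Krt32 and Krt82 differed by 0.13 and 0.19. The summed level of that list was 12.13 in control and 12.67 with ZAG (log2 of the summed linear values). S100a3 thus lay near the middle of the hair genes. In whole skin a larger share of hair follicle tissue and more transcript per cell cannot be told apart.

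The constitutive members differed least, 5 being higher with ZAG and 1 lower, with a median of 0.27 and none past 1.5-fold. S100a16, a widely expressed S100 gene, read 6.57 on the control array and 7.02 on the ZAG array, a difference of 0.45. S100a14, an epithelial S100 gene, was at 9.55 and 9.90, a difference of 0.35 that is within 0.11 of that of S100a16. Among genes within 0.5 log2 units of their level, 13.8% differed at least as much as S100a16 and 23.0% at least as much as S100a14, so neither stands far out.

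S100a10 encodes p11, an S100 protein that no longer needs calcium and holds annexin A2 in a complex at the membrane. Its levels were 9.68 in control and 9.98 with ZAG, a difference of 0.29. Anxa2, the gene of its annexin partner, was at 9.29 and 9.20 (difference -0.08), and Ahnak, which encodes a giant scaffold bound by that complex, was at 8.87 and 8.98 (difference 0.11). Both partner genes differed by less than the probe SD of 0.244.

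S100a11, which encodes a keratinocyte protein cross-linked into the cornified envelope, was the lower member of this class. It read 10.12 on the control array and 9.75 on the ZAG array, a difference of -0.37 or 1.29-fold lower, and 22.0% of the 11090 genes differed at least as much. Anxa1, the gene of its annexin partner, was at 10.25 and 10.40, a difference of 0.15. S100a11 and S100a10 lie next to each other apart from 1 listed gene, and their differences were 0.66 apart. A processed copy, S100a11-ps, has a probe of its own, which read 6.50 and 6.48, so it differed by -0.01. Whether the S100a11 probe also reads that copy was not tested.

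S100a6, which encodes calcyclin, differed least of the 10 members, at 9.28 in control and 9.43 with ZAG. This difference of 0.15 is below the probe SD, and 60.1% of the 11090 genes differed at least as much. Cacybp, the gene of the calcyclin-binding protein, was at 7.96 and 8.14, a difference of 0.19. S100a4, a gene of fibroblasts and leukocytes rather than of keratinocytes, was at 6.74 and 6.99, a difference of 0.26. That size is near the probe SD, and 37.7% of the 11090 genes differed at least as much. Fibroblast markers were lower with ZAG in 8 of 9 genes, with a median of -0.55. The mesenchymal gene Vim, itself one of these 9 and the gene of the intermediate filament vimentin, differed by -0.55. Myh9, the gene of the nonmuscle myosin that S100A4 binds, differed by -0.35. The macrophage and monocyte list was lower too, in 8 of 10 genes with a median of -0.61. Most markers of the cells known for S100a4 were thus lower, while its own small difference was positive and does not stand out.

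**Figure D2:**
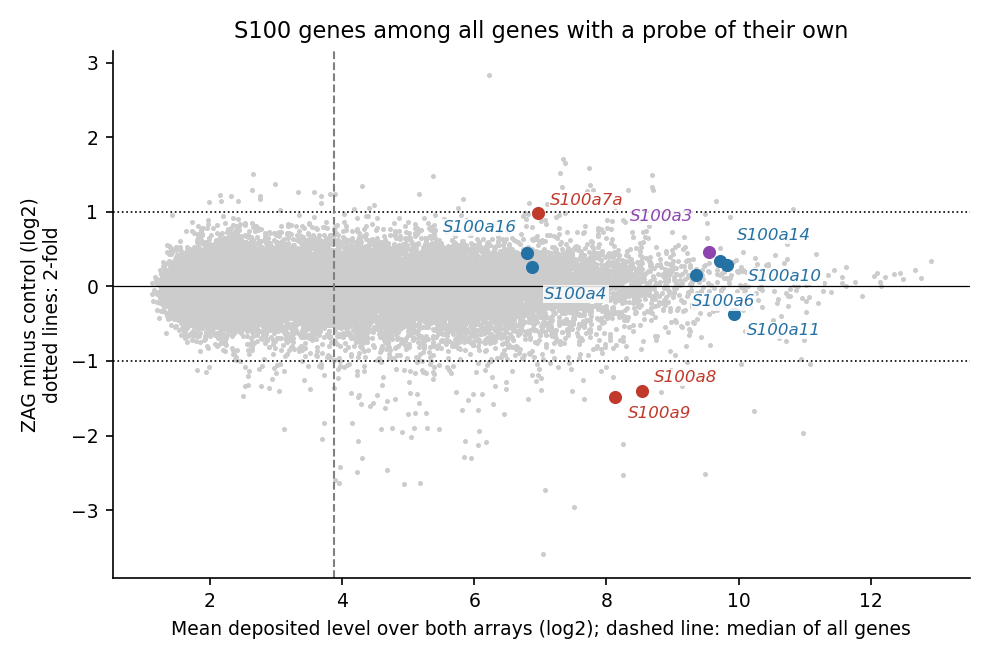
Difference (ZAG minus control, log2, vertical axis) against mean level over both arrays (log2, horizontal axis) for 22180 genes in grey, with the 10 S100 members coloured red (inflammatory), purple (hair) and blue (constitutive). S100a8 at -1.40 and S100a9 at -1.49 lie past the dotted 2-fold line, S100a7a at 0.98 lies next to the other, and the remaining members lie within the grey cloud.

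Most activated keratinocyte markers, and the neutrophil markers that lay above the background gauge on both arrays, were lower beside the pair. Of 10 measured activated keratinocyte genes, 9 were lower with ZAG and 7 at least 2-fold lower, with a median of -1.38. Krt6b, a keratin gene of wounded epidermis, was at 11.96 and 9.99 in control and ZAG, and Krt16, its type I counterpart, at 11.07 and 9.40, whereas Serpinb3a, a serpin gene of the same list, was at 7.92 on both arrays. The summed level of the list was 13.69 in control and 12.40 with ZAG. General keratinocyte markers had a smaller median of -0.16, with 6 of 9 lower and 0 at 2-fold. Their differences ranged from -0.73 for Krt14 to 0.65 for Ivl.

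For neutrophils, 12 markers were measured. The granule and surface genes Ly6g, Ngp, Camp, Elane and Mmp8 were below the background gauge on both arrays, the gauge of 3.16 being the level that 95 percent of 1390 odorant and pheromone receptor genes, taken as little expressed in skin, stayed below. A further 2, Mpo and Retnlg, were above it on 1 array only and are not counted by direction. The 5 above it on both arrays were all lower with ZAG, 4 of them past 2-fold, with a median of -1.05. The remaining gene of these 5, the granule gene Ltf, differed by -0.16, less than the probe SD. Over all 12 markers, dim ones included, the median was only -0.30. The receptor genes Cxcr2, for neutrophil-attracting chemokines, and Csf3r, for the growth factor G-CSF, were at 6.71 and 5.66 and at 5.23 and 4.01. Stfa2l1, a stefin gene of myeloid cells, was at 6.90 and 4.82, and Lcn2, a siderophore-binding protein gene that keratinocytes also express, at 6.76 and 5.75. The summed level of the 12 was 8.76 in control and 7.67 with ZAG. Among macrophage and monocyte markers, 8 of 10 were lower and 2 higher, with 1 at least 2-fold lower and a median of -0.61. Their differences ranged from -1.94 for Cd14 to 0.34 for Ccr2. S100a8 and S100a9 were thus lower together with the activated keratinocyte list, the neutrophil genes above the gauge and most macrophage and monocyte markers. The part of each in their difference was not tested. In whole skin fewer cells of a type and less RNA per cell cannot be told apart.

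Adipocyte markers were higher in 6 of 6 genes with a median of 0.42, a size near that of S100a3 and S100a16. Skeletal muscle markers were higher in 6 of 8, with a median of 0.29 and a spread from -1.69 to 1.59. The list of Schwann cell and melanocyte genes was higher in 5 of 7 with a median of 0.16. The higher genes were the pigment genes Pmel (0.09), Dct (0.34), Tyrp1 (0.40) and Mlana (0.80), and the myelin gene Mbp (0.16). Sox10 (-0.20) and Ncam1 (-0.75) were lower, so the list does not show nerve markers as higher. The part of fat, muscle, nerve or pigment cells in the S100 differences was not tested.

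**Figure D3:**
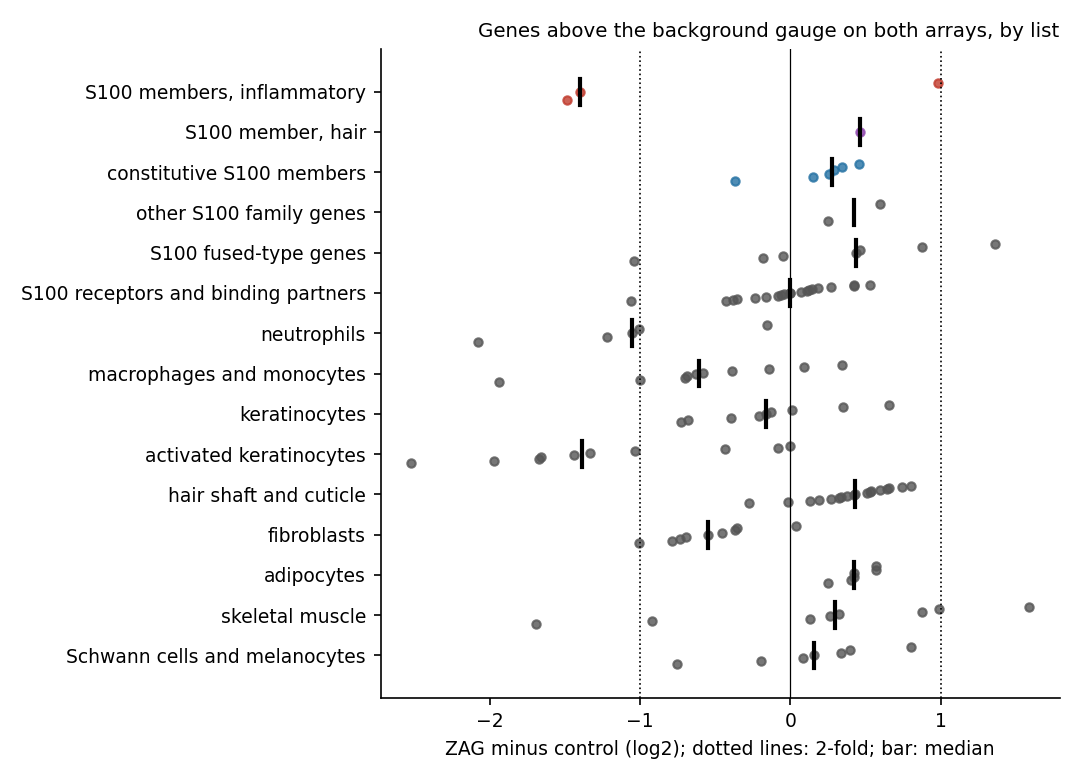
Differences (ZAG minus control, log2, horizontal axis) of single genes, 1 point per gene above the background gauge on both arrays, by list, with a black bar at each median. The activated keratinocyte and neutrophil medians of -1.38 and -1.05 lie on the side of S100a8 and S100a9. The neutrophil median covers 5 of 12 measured markers and was -0.30 over all 12. The macrophage and fibroblast medians of -0.61 and -0.55 lie on that side too, and the hair median of 0.43 on that of S100a3.

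The rest of the S100 family was mostly dim in this skin. Of 8 other family genes measured, 6 were below the gauge on both arrays (S100a2, S100a5, S100a7l2, S100b, S100g and S100z), and for these no fold is given. S100a1, known from muscle, read 6.16 on the control array and 6.75 on the ZAG array, a difference of 0.60 or 1.51-fold higher. S100a13, known for carrying growth factors out of cells, was at 6.44 and 6.69, a difference of 0.25. S100b, the marker of Schwann cells, read 2.46 and 2.17, below the gauge. S100pbp, which encodes an S100P-binding protein and is no S100 gene itself, was at 4.59 and 4.67.

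The fused-type genes, whose proteins begin with an S100 domain followed by long repeats, did not share a direction. Of 7 measured, 4 were higher and 3 lower, with 1 at least 2-fold each way and a median of 0.44. Tchhl1, a trichohyalin-like gene, was at 7.07 in control and 8.43 with ZAG, 2.57-fold higher, and Tchh, the trichohyalin gene of the inner root sheath, at 10.96 and 11.40. Crnn, the cornulin gene, was at 8.07 and 8.94, and Flg2, the filaggrin-2 gene, at 7.51 and 7.97. Rptn, the repetin gene, was at 10.55 and 9.51, 2.05-fold lower. Flg, the filaggrin gene, at 10.39 and 10.20, and Hrnr, the hornerin gene, at 10.38 and 10.33, differed by less than the probe SD. The trichohyalin genes of this list lay on the side of S100a3, as did Crnn and Flg2, while repetin lay on that of S100a8 and S100a9.

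Receptors and binding partners of S100 proteins showed little difference as a list. Of 20 measured genes above the gauge on both arrays, 10 were lower and 10 higher, with a median near 0. Tlr4, which encodes the Toll-like receptor for calprotectin, was at 5.11 and 5.07, and Ager, which encodes the receptor RAGE, was at 4.13 and 4.20. Bsg, which encodes the S100A9 receptor basigin, was at 9.17 and 9.30, and Emb, which encodes the related receptor embigin, at 5.92 on both arrays. These receptor genes all differed by less than the probe SD, unlike the calprotectin genes.

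Cd33, which encodes a sialic acid-binding receptor of myeloid cells reported to bind S100A9, was the 1 gene of the list past 2-fold, with 6.00 on the control array and 4.94 on the ZAG array, a difference of -1.06. The genes of the NADPH oxidase subunits that calprotectin assists, Cybb and Cyba, differed by -0.43 and -0.16. Cd36, the fatty acid transporter gene, was at 8.77 and 9.30, a difference of 0.53, the highest of the list. Alcam and Mcam, which encode adhesion molecules that bind S100 proteins, differed by 0.27 and -0.38, and Cd69, which encodes an activation receptor of lymphocytes, was below the gauge on both arrays. Of the remaining partners, Sugt1, a co-chaperone gene, differed by 0.42, Erbb2, a growth factor receptor gene, by -0.24, and Anxa5 and Anxa6, both annexin genes, by -0.06 and 0.00. Anxa11 had no probe of its own, and neither did S100p of the family list.

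Along the chromosome, the S100 genes from S100a1 to S100a7a that were above the gauge differed in the same direction. The segment from S100a1 to S100a10 on chromosome 3 has 101 listed genes in the reference, of which 64 were measured here. The first 10 measured genes, from S100a1 to S100a7a, all belong to the S100 family. Among the 8 of these above the gauge, 8 were higher with ZAG and 0 lower, from 0.15 to 0.98 with a median of 0.40. Of the 11090 genes, 52.3% were higher by any amount. The smallest of these differences, that of S100a6, was below the probe SD. The direction changed between S100a7a and S100a8, which are adjacent. At the far end, S100a11 (-0.37) and S100a10 (0.29) also differed in opposite directions.

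Past S100a9 the segment holds the small proline-rich (Sprr) and late cornified envelope (Lce) genes before it returns to S100a11 and S100a10. Of the 7 Sprr genes above the gauge on both arrays, 5 were lower, each past 2-fold, with a median of -1.15 over the 7. Sprr1b, which encodes a cornified envelope precursor, was at 10.75 and 8.23, and Sprr2b, of the same family, at 7.22 and 5.14. Sprr1a, as bright as Sprr1b in control, was at 10.91 on both arrays, and Sprr4 was 0.98 higher. Sprr2d, Sprr2e and Sprr2h were lower by folds of 3.16, 2.22 and 2.16. The Sprr2 genes are closely alike, so single Sprr2 values are uncertain. Whether the other Sprr probes read more than 1 gene was not tested.

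Of the 10 Lce genes above the gauge on both arrays, 6 were higher and 4 lower, with a median of 0.08. Lce3d was 2.51-fold and Lce3c 1.78-fold lower. Ivl, the involucrin gene, was 0.65 higher and Prr9, a proline-rich gene, 0.85 higher. Over the 43 genes of the segment above the gauge on both arrays the median was 0.11, with 9 past 2-fold on the lower side and 1 on the higher side. S100a8 and S100a9 therefore shared their direction with 5 of the 7 Sprr genes and with Lce3c and Lce3d farther along. They did not share it with their nearest S100 neighbours. Sprr1b, Sprr2d and Lce3d also belong to the activated keratinocyte list, so the segment partly repeats the values of that list.

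**Figure D4:**
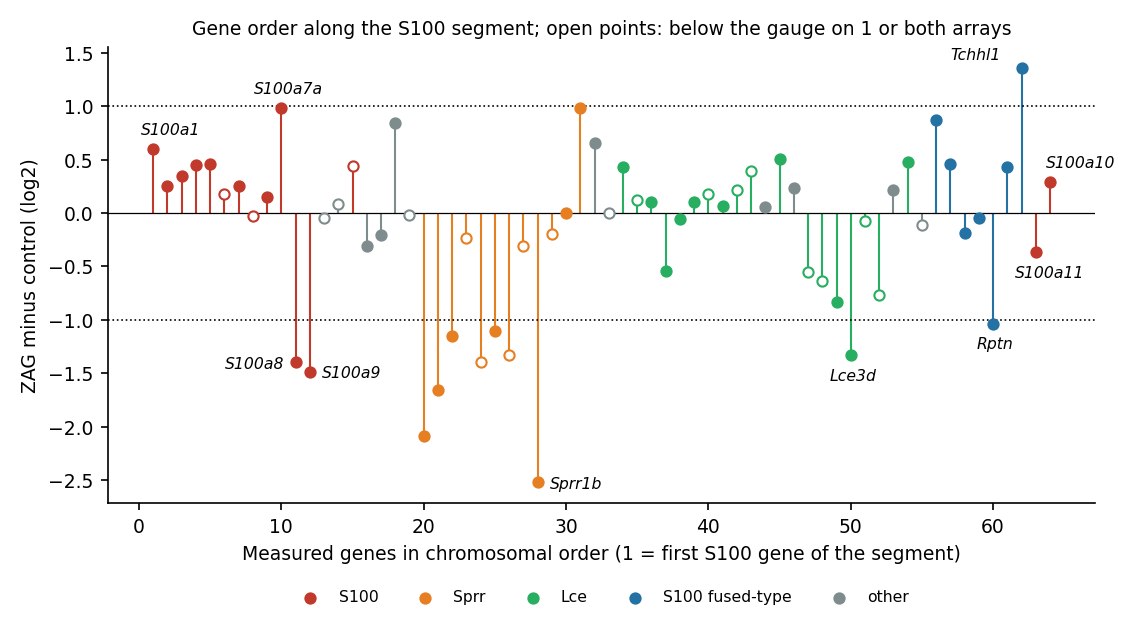
Difference (ZAG minus control, log2, vertical axis) of the 64 measured genes between S100a1 and S100a10 in chromosomal order (horizontal axis, by position in the order and not to distance), coloured by family, with open points for genes below the gauge on 1 or both arrays. The first S100 genes up to S100a7a lie above 0 apart from dim S100a5. S100a8 and S100a9 lie below -1, and 5 of the 7 Sprr genes with filled points lie below -1.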

How the data were processed

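Skin RNA was extracted with a column kit and read on Affymetrix arrays after biotin end-labelling of sense cDNA, per the labels' protocols. The values the authors deposited were read as log2 from their range, and their background correction, summarisation and normalization were not stated in any source used. The columns had medians of 3.33 (control) and 3.36 (ZAG). Of 33793 probes, 23521 have 1 gene symbol in the platform annotation, 1814 several and 8458 none. Probes with 1 symbol were used and averaged per gene, which gave 22180 genes, and the gene identifiers of 21994 (all 10 members among them) were found in the reference table (GRCm38.p6). The members and the 15 gene lists were chosen with earlier results of these data known. All genes of the S100 lists were to be named, and genes of the segment where at least 1.5-fold different at or above the median level; the marker genes given as examples, S100pbp and S100a11-ps were chosen after their values were seen. Genes below the gauge on both arrays have no fold, and in the 2-fold counts over all genes 1 below it on 1 array is read at the gauge. Directions and medians within lists and the segment use genes above it on both arrays, a choice made after the data were seen. The array number limits the precision. The 2-fold rule was tested on simulated data. Sequences are from RefSeq. Alternatives were median centring, quantile normalization, loess (span 0.3), the brightest probe, other gauges, filters and folds. Computations ran in Python 3.11.15 with pandas 2.3.3 and numpy 2.4.6, loess in statsmodels 0.14.6, and plots in matplotlib 3.10.9.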

Additional observations from a re-analysis of the deposited data

How the results depend on the processing

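Median centring, quantile normalization, loess and the brightest probe moved no member's log2 difference by more than 0.08, and all 40 such values kept their direction and stayed within the probe SD of 0.244. S100a8 ranged from -1.45 to -1.40, S100a9 from -1.53 to -1.49 and S100a7a from 0.95 to 0.98. The counts of 2 members lower and 0 higher at 2-fold held under these settings, with the gauge at the 99th percentile and with no gauge. At 1.5-fold, 1 member was higher. Over all genes the counts of 128 lower and 30 higher became 563 and 275 at 1.5-fold, and 62 were lower among genes past the 75th percentile of level, since a looser fold or a stricter filter changes how many genes can be counted. The neutrophil median moved from -0.30 over all 12 genes to -1.03 over those with a mean level above the gauge. The other list medians moved by less than the probe SD. No probe shared between a member and other genes exists in the annotation (0 probes), so that alternative gave no value. No paired analysis was possible because each group has 1 array, and no replicate could be left out. Depth of signal did not limit the members, all of which were above the gauge on both arrays.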
